A study of Mus musculus with 23 samples.

Results

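The genes described here are those whose symbols begin with Fbxl, Fbxo or Fbxw followed by a number, the names given to genes of F-box proteins. They are 76 of the 22784 gene symbols in the deposited table, with 19 Fbxl, 36 Fbxo and 21 Fbxw genes, chosen by symbol and not by any measured value. The table gives FPKM, sequenced fragments scaled to gene length and to library size, as 1 value per gene and group. The study followed mouse egg cells made in culture from embryonic stem cells beside egg cells that formed in animals, with 23 samples in 8 groups, 3 in each but the day 6 PGCLCs, which had 2. The culture series, of strain C57BL/6 X 129, held female ES cells kept in 2i+LIF, primordial germ cell-like cells (PGCLCs) induced for 6 days, PGCLCs reaggregated for 3 days with female E12.5 gonadal somatic cells, oocytes of secondary follicles (follicle oocytes from here on) after 21 days of such culture, and oocytes at metaphase of the second meiotic division (MII) after 11 more days in follicle culture and then 16 hours in maturation medium. The animal series, of strain B6D2F1, held E12.5 primordial germ cells (PGCs) and secondary follicle oocytes from ovaries at 8 days after birth, both sorted with the BVSC reporter transgenes, and MII oocytes from females aged 8 weeks. Strain and route differ together between the series, so they cannot be told apart.

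F-box proteins are the interchangeable subunits of the SCF ubiquitin ligases, in which they hold a substrate while the cullin Cul1, the linker Skp1 and the RING protein Rbx1 bring in the ubiquitin-loaded enzyme. The letter after Fbx names the part that binds substrates, leucine-rich repeats in Fbxl, WD40 repeats in Fbxw and other domains in Fbxo. In oocytes, ubiquitin ligases of this and of the APC/C type time the arrest and resumption of meiosis. Rodents also carry a run of closely related Fbxw genes that are best known as oocyte transcripts.

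That run is numbered Fbxw13 to Fbxw28, and 13 of its numbers had a row. Of these, 12 lie side by side on the minus strand of chromosome 9, over 606.6 kb at chr9:109139447-109746089 in the GENCODE M21 annotation of GRCm38. The order along the chromosome is Fbxw21, Fbxw13, Fbxw20, Fbxw14, Fbxw28, Fbxw22, Fbxw16, Fbxw19, Fbxw15, Fbxw24, Fbxw18 and Fbxw26. The remaining gene, Fbxw17, lies on chromosome 13, on the plus strand. The same annotation places Fbxw23, Fbxw25 and Fbxw27 in or beside the run, and they were not analysed here. The coding sequences of the 12 were 80.3% to 99.1% identical over 66 pairs, with a median of 84.3%. Fbxw17 was 57.5% to 59.1% identical to them, so by sequence it stands outside the run that its number places it in.

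The RefSeq promoters (GRCm38.p6, 250 bases before to 50 after the gene start) held 10 of the 12 chromosome 9 genes, all but Fbxw13 and Fbxw22. The longest runs of bases common to all 10 were a pair of 12-base words, AAATCTTTGGCC and GACTTAGGCCAC, which lie 49 or 50 bases apart. They lie on either side of the gene start in 9 of the 10. In Fbxw19 the first lies upstream of the start, and the second begins 10 bases before it and runs over it. Searched on both strands, the first word was in 12 of 27025 promoters, or 0.0444%, and the other 2 holders were Gm40505 and Olfr829. The second word was in 11 of the 27025, or 0.0407%, the other holder being Fbxw25. Neither word was in the Fbxw17 promoter or in those of 46 other F-box genes. The words were found by comparing these promoters with each other, so their presence in all 10 follows from the choice. The sequences are shown because they are what these genes, seen here in oocytes, share near the start and Fbxw17 lacks, with the 12-base words in capitals, 5′ to 3′ on the strand of the gene. They are Fbxw19 (chr9:109495853-109495935, minus strand), Fbxw16 (chr9:109449114-109449196, minus), Fbxw15 (chr9:109568236-109568319, minus), Fbxw24 (chr9:109626034-109626116, minus), Fbxw26 (chr9:109746061-109746144, minus) and, for contrast, a stretch upstream of Fbxw17 (chr13:50417751-50417833, plus).
Fbxw19: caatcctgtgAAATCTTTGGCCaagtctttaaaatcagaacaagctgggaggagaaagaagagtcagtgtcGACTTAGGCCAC
Fbxw16: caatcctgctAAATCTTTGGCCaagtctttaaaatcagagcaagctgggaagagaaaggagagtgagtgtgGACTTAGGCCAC
Fbxw15: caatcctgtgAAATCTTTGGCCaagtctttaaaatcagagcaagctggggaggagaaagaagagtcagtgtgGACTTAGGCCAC
Fbxw24: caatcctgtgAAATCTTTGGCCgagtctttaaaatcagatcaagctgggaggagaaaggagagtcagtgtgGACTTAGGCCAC
Fbxw26: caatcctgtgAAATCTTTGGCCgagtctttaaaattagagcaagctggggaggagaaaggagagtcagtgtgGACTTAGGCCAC
Fbxw17: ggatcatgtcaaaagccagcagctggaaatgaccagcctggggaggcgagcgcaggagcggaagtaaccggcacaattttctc
The windows from 10 bases before the first word to the end of the second were 84.7% to 100% identical over 45 pairs of the 10 genes, with a median of 92.9%. Both words are part of every window, so part of this identity also follows from the choice. The Fbxw14 and Fbxw28 windows were identical. The upstream stretch of Fbxw17 was 53.7% to 56.8% identical to the windows of the 10. It was not placed by a shared word and ends before the gene start, which the windows span. The 2 identities are therefore not of like stretches and do not measure how far the promoters differ. Of shorter motifs, TTTAAAA, an A and T run of the kind that binds TATA-binding protein, was in 9 of the 10, all but Fbxw20, and in 8.648% of all promoters. It began 17 bases after the first base of the first word in each of the 9. The E-box CANNTG, the class of site bound by the oocyte factor FIGLA, was in 10 of 10 and in 72.15% of all promoters. TAATTG, a homeodomain core of the class bound by the oocyte factor NOBOX, was in 0 of 10 and in 8.152% of all promoters. A match of letters is a description and does not show a site in use.

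Each group was represented by 1 deposited value, so differences carry no replicate spread and no test, and the sequencing depth behind a value is unknown. A difference is given as a log2 ratio of FPKM + 1, and a gene is called higher or lower where it reached 2-fold, a log2 ratio of 1 or more in size. The share of all 14242 genes with at least 1 FPKM in 1 or more groups that passed the same threshold stands beside the first count of each comparison. Of the 76 F-box genes, 70 had 1 FPKM or more in some group. The 6 below that level were Fbxl12os, an RNA gene on the opposite strand to Fbxl12, and Fbxo41, Fbxw10, Fbxo4, Fbxo24 and Fbxo39, whose highest values ran from 0.188 to 0.871 FPKM. Fbxo32 at 1.10 FPKM and Fbxl13 at 1.16 FPKM were the members just above it. In bulk RNA, fewer cells of a type and less RNA per cell cannot be told apart. As a sum, 8 oocyte markers separated the groups, at 14433 to 22465 FPKM in the 4 oocyte groups and at most 27.5 FPKM elsewhere. Within that list, Figla was at 1.76 FPKM and Nobox at 13.5 FPKM in in vivo MII oocytes. The 5 ES cell markers summed to 668 FPKM in ES cells and to at most 260 FPKM elsewhere. As a sum, the 6 PGC markers did not set PGCs apart from oocytes. They summed to 964 FPKM in E12.5 PGCs, 1338 FPKM in in vitro MII oocytes and 1480 FPKM in in vivo ones. Singly, Dnd1 was at 144 FPKM in PGCs and at most 0.619 FPKM in oocytes, and Nanos3 at 20.3 FPKM and at most 0.0490 FPKM. Ddx4, Dazl, Dppa3 and Kit were at 44.7 FPKM or more in every oocyte group. The summed FPKM of all genes differed between groups, at 616260 in in vitro MII oocytes and 975407 in in vivo MII oocytes and at 268720 to 349772 in the other 6 groups, so values with groups scaled to the same sum, or centred on the median gene, are given for the main counts and for genes whose call rests on the scale.

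The chromosome 9 cluster was silent or nearly so before oocyte growth and abundant in growing oocytes of both routes. Its 12 genes summed to 0.573 FPKM in ES cells, 0.827 FPKM in day 6 PGCLCs, 0.426 FPKM in reaggregated PGCLCs, 4159 FPKM in in vitro follicle oocytes and 1919 FPKM in in vitro MII oocytes. In the animal the sums were 0.630 FPKM in E12.5 PGCs, 3868 FPKM in follicle oocytes and 2666 FPKM in MII oocytes. No cluster gene reached 0.175 FPKM in ES cells, PGCLCs or PGCs, and the highest single value there was 0.174 FPKM, for Fbxw24 in PGCs. In follicle oocytes the lowest of the 12 was Fbxw13 in culture, at 91.8 FPKM, and Fbxw22 in the animal, at 112 FPKM. Between these earlier groups and follicle oocytes the levels therefore did not overlap for any of the 12. The share of all genes with such a gap was not counted. The cluster made up 1.19% of all FPKM in in vitro follicle oocytes and 1.11% in in vivo ones. Of the FPKM of all 76 F-box genes it made up 78.7% and 77.6% in these groups, 44.3% in in vitro MII oocytes and 37.7% in in vivo MII oocytes. Fbxw17 had another pattern, with 3.51 FPKM in ES cells, 7.23 FPKM in day 6 PGCLCs, 4.71 FPKM in reaggregated PGCLCs, 14.2 FPKM in in vitro follicle oocytes and 2.69 FPKM in in vitro MII oocytes. In the animal Fbxw17 had 3.89 FPKM in PGCs, 12.6 FPKM in follicle oocytes and 1.06 FPKM in MII oocytes. It was thus present in every group.

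**Figure D1:**
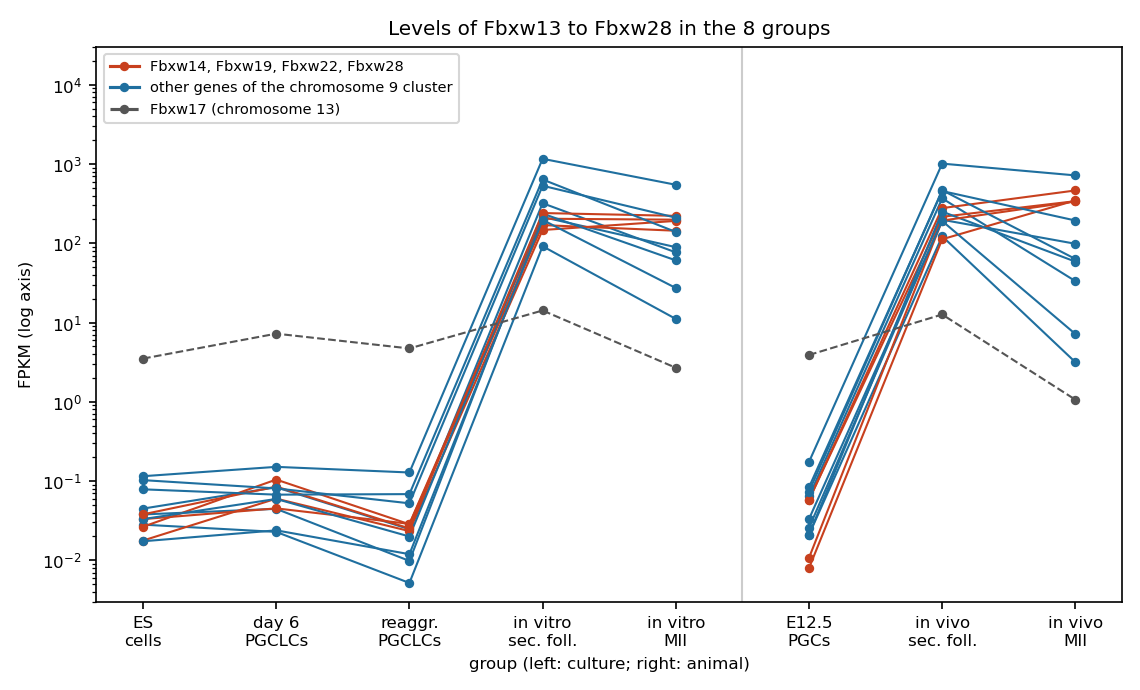
FPKM (log axis) of the 13 genes numbered Fbxw13 to Fbxw28 in the 5 culture groups (left) and 3 animal groups (right), 1 point per gene and group, with lines joining a gene's points within a route. The 12 chromosome 9 genes lie below 0.175 FPKM before the oocyte groups and between 91.8 and 1165 FPKM in follicle oocytes, while Fbxw17 stays between 1.06 and 14.2 FPKM.

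Fbxw24 was the most abundant F-box gene of growing oocytes. It had 1165 FPKM in in vitro follicle oocytes, rank 17 of the whole table, and 1013 FPKM in in vivo ones, rank 22. Next came Fbxw15, with 638 FPKM in culture and 468 FPKM in the animal, and Fbxw18, with 532 FPKM in culture and 456 FPKM in the animal. Between the routes at this stage the 12 genes differed by at most 0.45 in log2 ratio upwards, for Fbxw15, and by -0.44 downwards, for Fbxw14. The order at the top, Fbxw24, Fbxw15, Fbxw18 and Fbxw21, was the same in both routes. Of the genes flanking the run, Plxnb1, on one side, was also higher in oocytes but at a low level, with 7.74 to 10.1 FPKM in the 4 oocyte groups and 1.15 to 2.72 FPKM in the 4 earlier ones. Spink8, on the other side, had at most 0.128 FPKM in any group.

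From secondary follicle to MII the cluster divided. In Fbxw13, Fbxw26, Fbxw21, Fbxw15, Fbxw16 and Fbxw18 the MII level was at least 2-fold lower in both routes, a call that Fbxw18 lost in both after centring on the median gene (log2 -0.75 in culture and -0.25 in the animal). Fbxw13 had 11.1 FPKM in in vitro MII oocytes against 91.8 FPKM in in vitro follicle oocytes, and 3.16 FPKM in in vivo MII oocytes against 123 FPKM in in vivo follicle oocytes (log2 -2.94 and -4.89). Fbxw26 had 27.3 FPKM in in vitro MII oocytes against 197 FPKM in the in vitro follicle stage, and 7.16 FPKM in in vivo MII oocytes against 191 FPKM in the in vivo follicle stage (log2 -2.81 and -4.56). These were the deepest differences of the 12, and both genes kept under 8 FPKM in in vivo MII oocytes. Fbxw21 had 76.8 FPKM in in vitro MII oocytes against 320.5 FPKM at the follicle stage in culture, and 33.3 FPKM in in vivo MII oocytes against 369 FPKM at the follicle stage in the animal (log2 -2.05 and -3.43). Fbxw15 had 139 FPKM in in vitro MII oocytes against 638 FPKM in culture before, and 63.4 FPKM in in vivo MII oocytes against 468 FPKM in the animal before (log2 -2.19 and -2.86). In Fbxw21 and Fbxw15, as in the first pair, the animal step was the larger. Fbxw16 differed alike in the routes, with 60.9 FPKM in in vitro MII oocytes against 237 FPKM in in vitro follicle oocytes, and 58.7 FPKM in in vivo MII oocytes against 251 FPKM in in vivo follicle oocytes (log2 -1.94 and -2.08). Fbxw18 had 211 FPKM in in vitro MII oocytes against 532 FPKM in in vitro follicle oocytes, and 194 FPKM in in vivo MII oocytes against 456 FPKM in in vivo follicle oocytes (log2 -1.33 and -1.23). Both thus remained at more than 50 FPKM at MII.

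Fbxw20 and Fbxw24 were at least 2-fold lower at MII in culture and just within 2-fold or less in the animal. Fbxw20 had 89.3 FPKM in in vitro MII oocytes against 215 FPKM in in vitro follicle oocytes, and 98.6 FPKM in in vivo MII oocytes against 198 FPKM in in vivo follicle oocytes (log2 -1.26 in culture, and just short of 2-fold in the animal). Fbxw24 had 548 FPKM in in vitro MII oocytes against 1165 FPKM in in vitro follicle oocytes, and 719 FPKM in in vivo MII oocytes against 1013 FPKM in in vivo follicle oocytes (log2 -1.09 and -0.49). After centring neither was called in culture (-0.67 for Fbxw20 and -0.50 for Fbxw24), and with groups scaled to the same sum both were past 2-fold lower in the animal (-2.46 and -1.97). Fbxw24 remained the most abundant gene of the cluster at MII in both routes.

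Fbxw14, Fbxw28, Fbxw19 and Fbxw22 were not lower by 2-fold in either route. Fbxw14 had 199 FPKM in in vitro MII oocytes against 204 FPKM in in vitro follicle oocytes, and 464 FPKM in in vivo MII oocytes against 278 FPKM in in vivo follicle oocytes (log2 -0.04 and 0.74). Fbxw28 had 144 FPKM in in vitro MII oocytes against 169.7 FPKM in in vitro follicle oocytes, and 340.1 FPKM in in vivo MII oocytes against 216 FPKM in in vivo follicle oocytes (log2 -0.23 and 0.65). Fbxw14 and Fbxw28 lie next to each other and their coding sequences were 99.1% identical. The 50-base stretches of each coding sequence were searched in the other genes of the run that had a row. Only 29.6% of those of Fbxw14 and 32.0% of those of Fbxw28 were found in none of these, against 86.0% to 96.4% for the other 10. Fbxw23, Fbxw25 and Fbxw27 were not searched, so these shares may be too high. The split of reads between Fbxw14 and Fbxw28 is thus uncertain and their sum is the firmer value. The sum was 343 FPKM in in vitro MII oocytes against 374 FPKM in in vitro follicle oocytes, and 804 FPKM in in vivo MII oocytes against 494 FPKM in in vivo follicle oocytes. Fbxw19 had 222 FPKM in in vitro MII oocytes against 241 FPKM in in vitro follicle oocytes, and 337 FPKM in in vivo MII oocytes against 193 FPKM in in vivo follicle oocytes (log2 -0.12 and 0.80). Fbxw22 had 192 FPKM in in vitro MII oocytes against 147 FPKM in in vitro follicle oocytes, and 347 FPKM in in vivo MII oocytes against 112 FPKM in in vivo follicle oocytes (log2 0.38 and 1.62, and 0.15 in the animal with groups scaled to the same sum), the only gene of the 12 that was 2-fold higher at MII on the deposited scale.

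Whether these 4 were higher or lower at MII depended on scaling. Their place above the other 8 was kept, but most settings could hardly change it. Equal sums and centring move abundant genes of a comparison nearly alike, and pseudocounts move them little. Quantile normalization could change the order. In culture it put the 4 between -1.30 and -0.69, against -3.47 to -2.24 for the other 8. In the animal it put the 4 between -1.14 and -0.13, against -4.61 to -2.33 for the other 8. With every group scaled to the same sum, the log2 ratios of the 4 lay between -1.05 and -0.43 in culture, against -3.70 to -1.90 for the other 8. In the animal they then lay between -0.82 and 0.15, against -5.99 to -1.97 for the other 8. The 4 were grouped after these values were seen. Their coding sequences were 87.5% to 99.1% identical over 6 pairs, with a median of 90.2%. The 8 others had 82.3% to 89.8% over 28 pairs, with a median of 84.3%, and pairs across the groups had 80.3% to 88.7%, with a median of 83.5%. Fbxw22 was closest to Fbxw14, at 92.3%, but Fbxw19 was closest to Fbxw16, at 88.7%, a gene of the other group. The antisense gene Gm42493 overlaps the 5′ end of Fbxw16, and the sources used here do not say whether counting used strand.

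**Figure D2:**
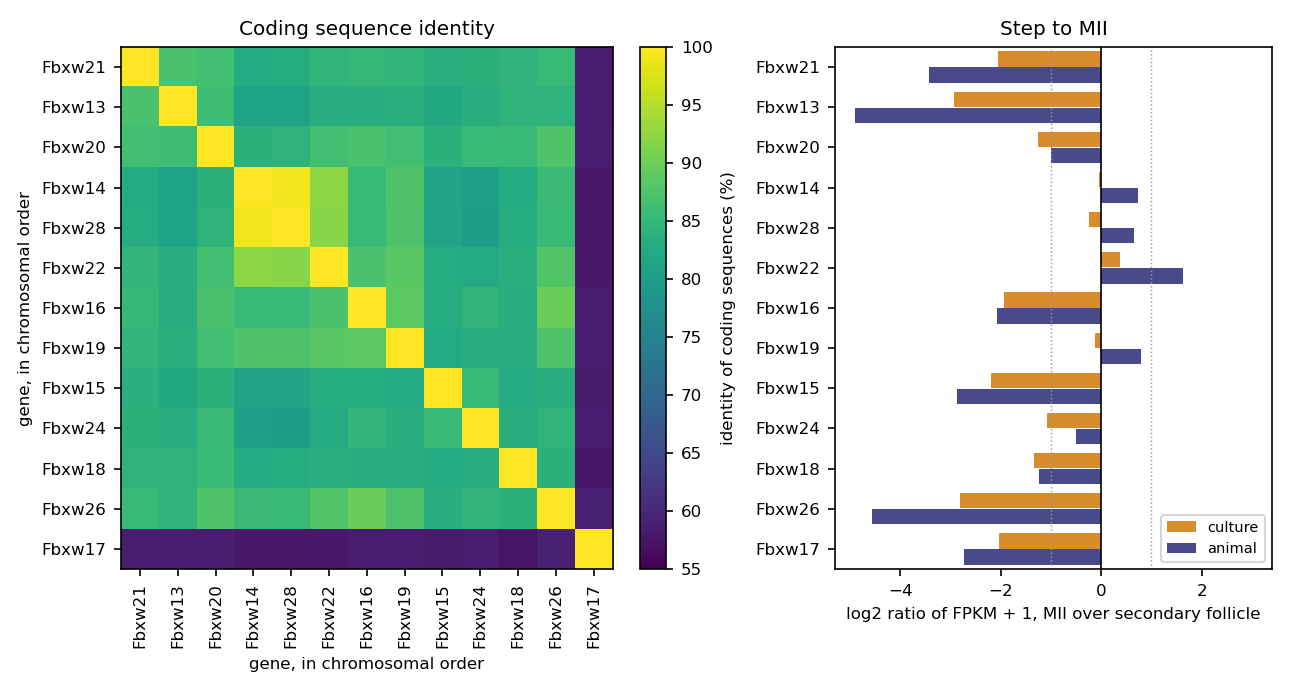
Left, identity of coding sequences (%) between the 13 genes in chromosomal order, with Fbxw17 last. Right, log2 ratio of FPKM + 1 of MII over follicle oocytes in culture and in the animal, 1 bar per gene and route, dotted lines at 2-fold: Fbxw14, Fbxw28, Fbxw22 and Fbxw19 lie between -0.23 and 1.62, and the other 8 chromosome 9 genes between -4.89 and -0.49.

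Over the cluster as a whole, numbered Fbxw13 to Fbxw28, the summed level was lower at MII by a log2 ratio of -1.12 in culture and -0.54 in the animal. With groups scaled to the same sum these became -1.94 and -2.02, and with values centred on the median gene -0.53 and 0.44, so the size, and for the animal the sign, depended on the scaling. Among 9414 genes outside the list with 10 FPKM or more in some group, those whose log2(FPKM + 1) followed that of the cluster's sum most closely over the 8 groups were Olah (Pearson r = 0.999), Oas1e, D7Ertd443e, Oosp2, D030018L15Rik, Usp30, Zar1 and Spty2d1. Oosp2 encodes an oocyte-secreted protein and Zar1 a maternal factor needed at the first divisions of the embryo. Zar1 had 1133 FPKM in in vitro MII oocytes and 1424 FPKM in in vitro follicle oocytes, 1171 FPKM in in vivo MII oocytes and 1550 FPKM in in vivo follicle oocytes, and at most 0.336 FPKM in the 4 earlier groups. Oas1e, of the family of oligoadenylate synthetases, had 855 FPKM in in vitro follicle oocytes and 732 FPKM in in vivo ones. These correlations rest on 8 group values that mostly separate oocytes from earlier cells.

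The other 63 F-box genes were spread over all stages. Their summed level was 718 FPKM in ES cells, 890 FPKM in day 6 PGCLCs, 776 FPKM in reaggregated PGCLCs, 1109 FPKM in in vitro follicle oocytes and 2413 FPKM in in vitro MII oocytes. In the animal it was 765 FPKM in PGCs, 1106 FPKM in follicle oocytes and 4405 FPKM in MII oocytes. As a share of all FPKM this was 0.216% to 0.289% before the oocyte stages and 0.316% to 0.452% in oocytes.

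Fbxo15, a marker of pluripotent cells and a known target of Oct4 and Sox2, led the F-box genes of the early culture groups. It had 90.8 FPKM in ES cells, 129 FPKM in day 6 PGCLCs, 54.8 FPKM in reaggregated PGCLCs, 0.546 FPKM in in vitro follicle oocytes and 17.1 FPKM in in vitro MII oocytes. In the animal it had 35.1 FPKM in PGCs, 0.534 FPKM in follicle oocytes and 38.5 FPKM in MII oocytes. The low at the secondary follicle stage and the return at MII thus appeared in both routes, and the step to MII was 3.55 in log2 ratio in culture and 4.69 in the animal. Fbxo5, or Emi1, which inhibits APC/C, was among the 3 highest in each of the 3 early culture groups. It had 57.7 FPKM in ES cells, 87.6 FPKM in day 6 PGCLCs, 46.9 FPKM in reaggregated PGCLCs, 83.1 FPKM in in vitro follicle oocytes and 23.2 FPKM in in vitro MII oocytes. In the animal Fbxo5 had 49.4 FPKM in PGCs, 70.2 FPKM in follicle oocytes and 2.34 FPKM in MII oocytes. Fbxo22, an adaptor that binds histone demethylases of the KDM4 family, had 51.9 to 68.8 FPKM in the 4 groups before oocytes and 7.79 to 9.70 FPKM in the 4 oocyte groups. Fbxl5, an iron-sensing adaptor for IRP2, was the highest F-box gene of E12.5 PGCs, at 60.3 FPKM, and Fbxl19, which carries a CXXC domain that binds CpG islands, had 43.6 FPKM there.

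Before oocyte growth, 8 of 76 F-box genes passed 2-fold in each step, where 21.6% and then 10.2% of all genes did. These counts depended on the pseudocount. With 0.1, 10 were higher and 11 lower in day 6 PGCLCs against ES cells (15.8% and 16.9% of all genes). In reaggregated against day 6 PGCLCs, 12 were then higher and 3 lower (12.2% and 8.83%). The values that follow use the pseudocount of 1. In day 6 PGCLCs against ES cells, 5 of 76 were higher and 3 lower, where 9.63% and 12.0% of all genes were. Fbxl12 had 34.1 FPKM in day 6 PGCLCs against 13.6 FPKM in ES cells (log2 1.27), Fbxo31, an adaptor for cyclin D1, had 28.3 FPKM in day 6 PGCLCs against 10.8 FPKM in ES cells (log2 1.32), and Fbxo36 had 10.1 FPKM in day 6 PGCLCs against 2.63 FPKM in ES cells (log2 1.61). Fbxo7, the gene of a familial Parkinson disease, was lower, with 3.22 FPKM in day 6 PGCLCs against 11.4 FPKM in ES cells (log2 -1.56). In reaggregated PGCLCs against day 6 PGCLCs, 6 were higher and 2 lower, where 5.15% and 5.04% of all genes were. The 2 lower were Fbxo15 (log2 -1.22, or -0.99 with groups scaled to the same sum) and Fbxo36 (log2 -1.47). Fbxo47, needed for meiosis in mouse spermatocytes, was the furthest upwards, with 5.01 FPKM in reaggregated PGCLCs against 1.10 FPKM in day 6 PGCLCs (log2 1.52). Between reaggregated PGCLCs and PGCs of the animal Fbxo47 was within 2-fold.

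At the secondary follicle stage, 29 of 76 F-box genes were higher and 12 lower in culture than in reaggregated PGCLCs, where 25.2% and 26.4% of all genes were (51.6% in all). In the animal, 31 were higher and 10 lower than in PGCs, where 24.3% and 25.9% of all genes were (50.2% in all). The cluster numbered Fbxw13 to Fbxw28 gave 13 of the higher calls in each route, with log2 ratios up to 10.01 for Fbxw24 in culture. Outside it, 16 of 63 were higher in culture and 18 of 63 in the animal, or 25.4% and 28.6%, near the share over all genes. Lower calls outside it were 12 of 63 in culture and 10 of 63 in the animal, or 19.0% and 15.9%.

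Among the higher ones, Fbxo40, known in mouse muscle as an adaptor for IRS1, stood out. Its highest value in the 4 earlier groups was 0.0141 FPKM, in reaggregated PGCLCs, and it had 26.6 FPKM in in vitro follicle oocytes and 40.7 FPKM in in vivo ones. At MII it had 3.04 FPKM in culture and 0.339 FPKM in the animal. Its log2 ratios into growing oocytes, 4.77 in culture and 5.36 in the animal, were the highest of the 63, and the high level was not kept at MII. Fbxo34 had 102 FPKM in in vitro follicle oocytes against 7.34 FPKM in reaggregated PGCLCs, and 99.0 FPKM in in vivo follicle oocytes against 7.33 FPKM in PGCs (log2 3.62 and 3.59). Fbxl6 had 131 FPKM in the in vitro oocytes against 27.2 FPKM in reaggregated PGCLCs, and 128 FPKM in the in vivo oocytes against 26.1 FPKM in PGCs (log2 2.22 and 2.26). Fbxw8, whose protein pairs with Cul7, had 60.3 FPKM in the in vitro oocytes against 12.0 FPKM in reaggregated PGCLCs, and 57.0 FPKM in the in vivo oocytes against 15.3 FPKM in PGCs (log2 2.23 and 1.84). In Fbxo34, Fbxl6 and Fbxw8 the routes gave nearly the same levels.

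Of the lower ones, Fbxo6 and Fbxo2 encode adaptors that recognise N-glycans of glycoproteins. Fbxo6 had 0.193 FPKM in in vitro follicle oocytes against 42.9 FPKM in reaggregated PGCLCs, and 0.0708 FPKM in in vivo follicle oocytes against 42.8 FPKM in PGCs (log2 -5.20 and -5.36). Fbxo2 had 0.160 FPKM in the in vitro oocytes against 8.86 FPKM in reaggregated PGCLCs, and 0.0578 FPKM in the in vivo oocytes against 6.64 FPKM in PGCs (log2 -3.09 and -2.85). Neither returned at MII, where Fbxo6 had 0.687 FPKM in culture and 0.151 FPKM in the animal. Fbxw2 had 8.07 FPKM in in vitro follicle oocytes against 25.2 FPKM in reaggregated PGCLCs, and 12.1 FPKM in in vivo ones against 28.6 FPKM in PGCs (log2 -1.53 and -1.17). Fbxo31 had 10.9 FPKM in the in vitro oocytes against 25.1 FPKM in reaggregated PGCLCs, and 11.3 FPKM in the in vivo oocytes against 28.5 FPKM in PGCs (log2 -1.13 and -1.27). Fbxw7, the adaptor for cyclin E, Myc and Notch, was past 2-fold lower in culture and near it in the animal. It had 3.95 FPKM in in vitro oocytes against 9.55 FPKM in reaggregated PGCLCs, and 4.98 FPKM in in vivo oocytes against 10.2 FPKM in PGCs (log2 -1.09 and -0.91, and -1.48 and -1.24 with groups scaled to the same sum).

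**Figure D3:**
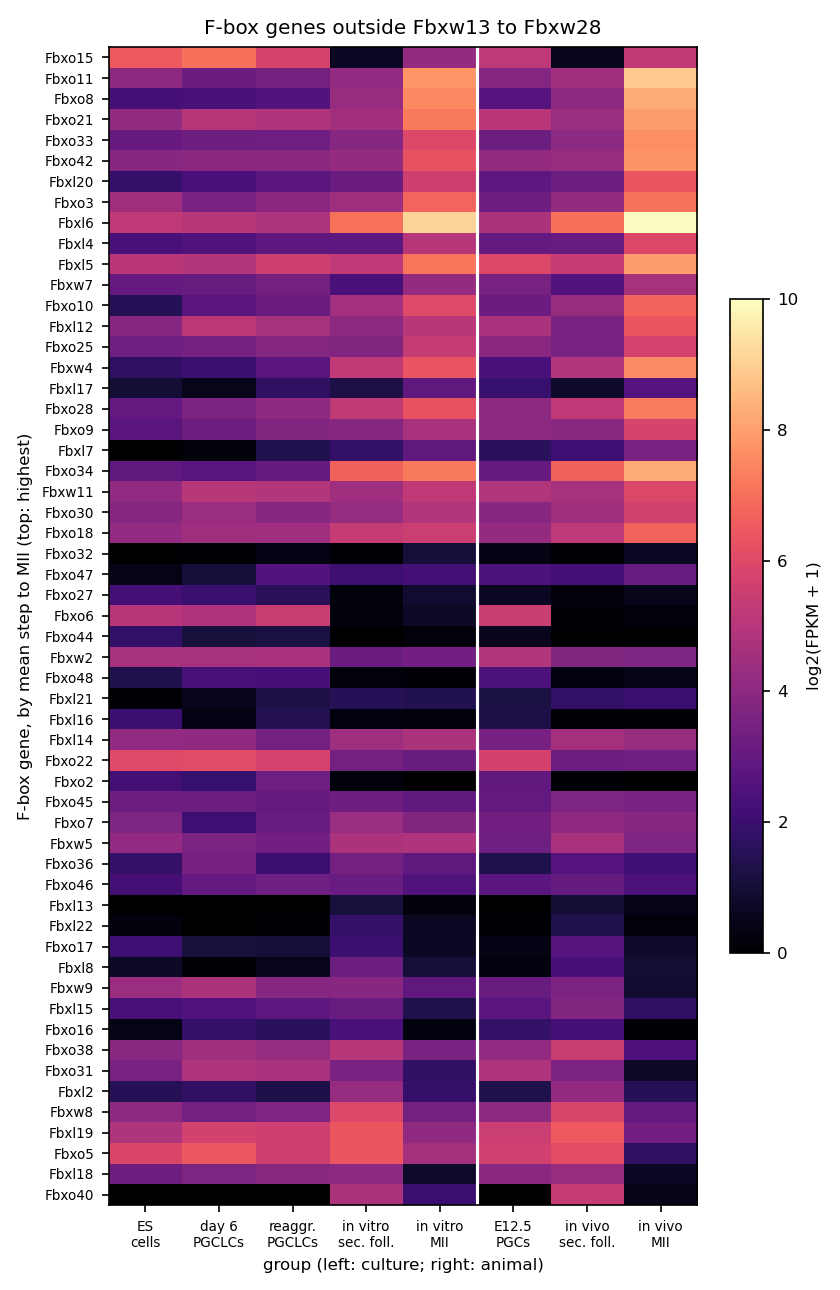
Levels, as log2(FPKM + 1), of 56 of the 57 tested F-box genes outside Fbxw13 to Fbxw28 in the 5 culture groups (left of the white line) and 3 animal groups (right), 1 value per gene and group, ordered by the mean step to MII. Genes at the top, among them Fbxo15, Fbxo11 and Fbxo8, are brighter in both MII columns than in the secondary follicle columns, and those at the bottom, among them Fbxo40, Fbxl18 and Fbxo5, are darker.

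At MII, 21 of 76 F-box genes were higher and 22 lower than in follicle oocytes in culture, where 23.9% and 28.6% of all genes were (52.5% in all). In the animal, 26 were higher and 22 lower, where 28.0% and 33.1% of all genes were. These shares are near those over all genes, and the balance of directions depended on the scale. With groups scaled to the same sum, 14 were higher and 30 lower in culture (15.0% and 39.5% of all genes), and 15 higher and 31 lower in the animal (15.2% and 45.6%). After centring, 27 were higher and 16 lower in culture (33.5% and 18.5% of all genes), and 37 higher and 16 lower in the animal (42.8% and 20.1%). In both routes 20 genes were higher, none of them of the cluster, 20 were lower, and 0 were called in opposite directions. Of all genes, 21.8% were higher in both, 26.1% lower in both and 0.0492% in opposite directions, against 26.3% of the F-box genes for each of the shared directions.

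Fbxo11, an adaptor for BCL6, had the highest ratio in culture, with 220 FPKM in in vitro MII oocytes against 16.6 FPKM in in vitro follicle oocytes, and 468 FPKM in in vivo MII oocytes against 21.3 FPKM in in vivo follicle oocytes (log2 3.65 and 4.40). Fbxo8, whose protein also holds a Sec7 domain, had 188 FPKM in in vitro MII oocytes against 18.4 FPKM in in vitro follicle oocytes, and 294 FPKM in in vivo MII oocytes against 15.6 FPKM in in vivo follicle oocytes (log2 3.29 and 4.15). Fbxo21 had 148 FPKM in in vitro MII oocytes against 21.7 FPKM in in vitro follicle oocytes, and 248 FPKM in in vivo MII oocytes against 19.3 FPKM in in vivo follicle oocytes (log2 2.71 and 3.62). All 3 stayed past 2-fold in both routes with groups scaled to the same sum. Fbxl6 became the most abundant F-box gene of MII oocytes, at 549 FPKM in in vitro MII oocytes against 131 FPKM in in vitro follicle oocytes, and 1031 FPKM in in vivo MII oocytes against 128 FPKM in in vivo follicle oocytes (log2 2.06 and 3.00, and 0.96 and 1.17 after quantile normalization). Fbxl5 had 139 FPKM in in vitro MII oocytes against 36.6 FPKM in in vitro follicle oocytes, and 246 FPKM in in vivo MII oocytes against 40.9 FPKM in in vivo follicle oocytes (log2 1.90 and 2.56). Its known substrate was higher at MII too: Ireb2, which encodes IRP2, had 329.9 FPKM in in vitro MII oocytes against 7.80 FPKM in in vitro follicle oocytes, and 550.1 FPKM in in vivo MII oocytes against 10.0 FPKM in in vivo follicle oocytes.

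Fbxl20, known in mouse brain for turnover of a synaptic protein, had 46.9 FPKM in in vitro MII oocytes against 8.17 FPKM in in vitro follicle oocytes, and 81.9 FPKM in in vivo MII oocytes against 8.44 FPKM in in vivo follicle oocytes (log2 2.39 and 3.13). Fbxw7 had 17.3 FPKM in in vitro MII oocytes against 3.95 FPKM in in vitro follicle oocytes, and 24.0 FPKM in in vivo MII oocytes against 4.98 FPKM in in vivo follicle oocytes (log2 1.88 and 2.06, and 1.16 and 0.70 with groups scaled to the same sum). Fbxw11, one of the beta-TrCP proteins that bind phosphorylated beta-catenin and the Emi proteins, had 36.3 FPKM in in vitro MII oocytes against 21.1 FPKM in in vitro follicle oocytes, and 59.0 FPKM in in vivo MII oocytes against 23.5 FPKM in in vivo follicle oocytes. Its animal step was 1.29 in log2 ratio and -0.15 with groups scaled to the same sum, so its sign depended on the scaling. The same held for Fbxo30, which acts in chromosome segregation of mouse oocytes: it had 29.7 FPKM in in vitro MII oocytes against 17.8 FPKM in in vitro follicle oocytes, and 50.5 FPKM in in vivo MII oocytes against 20.6 FPKM in in vivo follicle oocytes (log2 1.26 in the animal, -0.18 with groups scaled to the same sum). Fbxo34 had 145 FPKM in in vitro MII oocytes against 102 FPKM in in vitro follicle oocytes, and 306 FPKM in in vivo MII oocytes against 99.0 FPKM in in vivo follicle oocytes (log2 1.62 in the animal, 0.15 with groups scaled to the same sum and -0.12 after quantile normalization). Fbxo7 was within 2-fold in both routes, at 12.3 FPKM in in vitro MII oocytes against 19.0 FPKM in in vitro follicle oocytes and 13.7 FPKM in in vivo MII oocytes against 15.9 FPKM in in vivo follicle oocytes.

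On the lower side, Fbxl18 had 0.754 FPKM in in vitro MII oocytes against 15.2 FPKM in in vitro follicle oocytes, and 0.551 FPKM in in vivo MII oocytes against 18.4 FPKM in in vivo follicle oocytes (log2 -3.21 and -3.65). Fbxw8 had 9.81 FPKM in in vitro MII oocytes against 60.3 FPKM in in vitro follicle oocytes, and 6.90 FPKM in in vivo MII oocytes against 57.0 FPKM in in vivo follicle oocytes (log2 -2.50 and -2.88). Fbxl19 had 16.1 FPKM in in vitro MII oocytes against 82.4 FPKM in in vitro follicle oocytes, and 9.49 FPKM in in vivo MII oocytes against 89.4 FPKM in in vivo follicle oocytes (log2 -2.28 and -3.11). The steps of Fbxo40 and Fbxo5 to MII were -2.77 and -1.80 in log2 ratio in culture, and -4.96 and -4.42 in the animal. Each of these 5 stayed past 2-fold lower with groups scaled to the same sum, after quantile normalization and after centring.

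Between the routes, F-box genes passed 2-fold at MII and, on the deposited scale with a pseudocount of 1, at neither earlier stage. With a pseudocount of 0.1, 3 of 76 were higher and 0 lower at each earlier stage. Of all genes, 4.73% were then higher and 2.49% lower in reaggregated PGCLCs against PGCs, and 4.97% and 2.26% in follicle oocytes. The counts that follow use the pseudocount of 1. In reaggregated PGCLCs against E12.5 PGCs 0 of 76 were called, where 1.39% of all genes were higher and 0.786% lower, or 2.18% in all, and the furthest was Fbxo27 at a log2 ratio of 0.93, with 1.98 FPKM in reaggregated PGCLCs and 0.566 FPKM in PGCs. In in vitro against in vivo follicle oocytes 0 of 76 were called, where 1.74% of all genes were higher and 0.660% lower, or 2.40% in all, and the furthest was Fbxl8 at 0.97, with 8.46 FPKM in culture and 3.82 FPKM in the animal. In in vitro against in vivo MII oocytes 9 were higher and 12 lower, where 12.4% and 9.45% of all genes were. With groups scaled to the same sum, 13 were higher and 1 lower (16.7% and 1.18% of all genes), and after centring 5 were higher and 25 lower (6.87% and 21.9%).

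Fbxo5 was the furthest of the higher ones, with 23.2 FPKM in in vitro MII oocytes and 2.34 FPKM in in vivo MII oocytes (log2 2.86). Fbxw9 followed, with 6.62 FPKM in culture and 0.855 FPKM in the animal (log2 2.04). Fbxw5 had 27.9 FPKM in culture and 11.7 FPKM in the animal (log2 1.19), and Fbxo38, reported as an adaptor for the receptor PD-1, had 10.8 FPKM in culture and 4.64 FPKM in the animal (log2 1.06). The remaining higher calls were Fbxo40 and 4 cluster genes, Fbxw26 at 1.79, Fbxw13 at 1.54, Fbxw21 at 1.18 and Fbxw15 at 1.12 in log2 ratio. These 4 are the cluster genes with the deepest step to MII in the animal, a comparison that uses the same in vivo MII values. All 9 stayed past 2-fold with groups scaled to the same sum, 6 after quantile normalization, 5 after centring and 4 with a pseudocount of 5. Equal sums moved the median log2 ratio of all genes between the MII groups by 0.22. That all 9 were kept under equal sums thus follows largely from the scale and is no check of single genes.

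The lower ones were led by Fbxo33, with 61.1 FPKM in in vitro MII oocytes and 196 FPKM in in vivo MII oocytes (log2 -1.66). Fbxo42, an adaptor reported to bind p53, had 79.0 FPKM in culture and 212 FPKM in the animal (log2 -1.41). Fbxl12 had 32.2 FPKM in culture and 82.6 FPKM in the animal (log2 -1.33), and Fbxo18, which encodes the DNA helicase FBH1, had 43.6 FPKM in culture and 107 FPKM in the animal (log2 -1.27). Fbxw4, Fbxw28, Fbxw14, Fbxo9, Fbxo15, Fbxo11 and Fbxo34 followed, at log2 ratios from -1.24 to -1.07, and Fbxo28 was just past 2-fold, with 75.3 FPKM in culture and 152 FPKM in the animal. With groups scaled to the same sum, 1 of the 12, Fbxo33, was still called, and after quantile normalization 0 were. Centring kept all 12, which it could not fail to do, since it moves every such ratio by -0.39. The loss of lower calls under equal sums likewise goes with the upward move of the scale. None of the 21 changed sign under these rescalings.

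**Figure D4:**
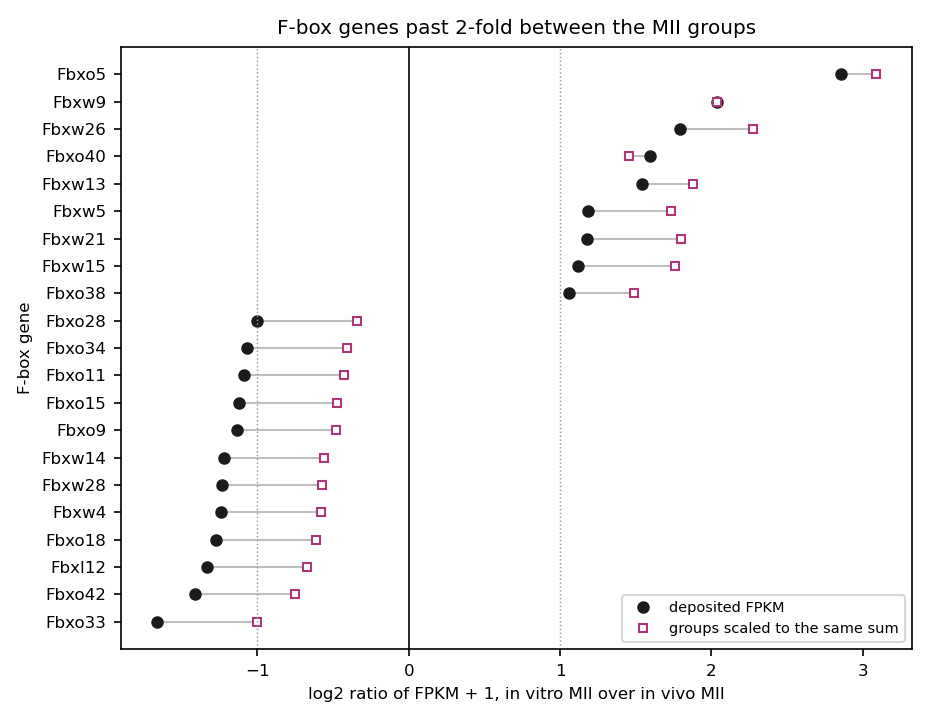
Log2 ratio of FPKM + 1 of in vitro over in vivo MII oocytes for the 21 F-box genes past 2-fold, as deposited (circles) and with groups scaled to the same sum (squares), 1 value per gene, dotted lines at 2-fold. All 9 higher genes stay beyond 2-fold as squares, while 11 of the 12 lower genes come within it. Equal sums move these ratios upwards, so this contrast follows largely from the scale.

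Of markers of other cells, the sum of 12 granulosa and cumulus genes was 81.8 FPKM in in vitro MII oocytes and 71.6 FPKM in in vivo MII oocytes, with 8 and 7 of them at 1 FPKM or more. Of the 12, 3 were at least 2-fold higher in culture, Inha, Gja1 and Inhba, and 0 were lower. Inha was at 19.3 FPKM in culture and 2.55 FPKM in the animal. Gja1 was at 9.72 FPKM in culture and 2.94 FPKM in the animal, and Inhba at 5.89 FPKM in culture and 2.25 FPKM in the animal. Cyp19a1, the highest of the 12 in both, was at 27.1 FPKM in culture and 42.2 FPKM in the animal, and Fshr at 0 in both. Of 11 gonadal stroma genes, Gata4 was the highest, at 76.7 FPKM in culture and 64.8 FPKM in the animal, and 2 and 1 of the 11 were at 1 FPKM or more. In reaggregated PGCLCs the stroma genes summed to 11.2 FPKM, against 15.9 FPKM in day 6 PGCLCs, before reaggregation, and 1.35 FPKM in PGCs. The part of such cells in the route difference was not tested.

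The partners of F-box proteins were described from lists, whose counts at MII stand against the 23.9% higher and 28.6% lower of all genes in culture and 28.0% higher and 33.1% lower in the animal. Of 8 genes of the SCF core and its E2 enzymes, 5 were higher at MII than in follicle oocytes in culture, Ube2d2a, Ube2d1, Cul1, Cdc34 and Ube2d3, and 0 were lower. In the animal the same 5 were higher and Skp1a was lower. Cul1 had 962 FPKM in in vitro MII oocytes against 216 FPKM in in vitro follicle oocytes, and 2113 FPKM in in vivo MII oocytes against 223 FPKM in in vivo follicle oocytes. Skp1a had 800.2 FPKM in in vitro MII oocytes against 1095 FPKM in in vitro follicle oocytes, and 418 FPKM in in vivo MII oocytes against 1224 FPKM in in vivo follicle oocytes. The scaffold and the linker thus went opposite ways in the animal. With groups scaled to the same sum, Cul1, Ube2d1 and Ube2d2a stayed higher, and Skp1a and Ube2r2 were lower, in both routes, while after centring no gene of the list was called lower.

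The COP9 signalosome, which removes the Nedd8 mark from cullins, was mostly lower at MII. Of 9 subunits, 5 were lower at MII in culture and 2 higher, and 6 were lower and 1 higher in the animal. Cops6 had 7.04 FPKM in in vitro MII oocytes against 88.2 FPKM in in vitro follicle oocytes, and 2.14 FPKM in in vivo MII oocytes against 92.9 FPKM in in vivo follicle oocytes. Cops3 had 20.0 FPKM in in vitro MII oocytes against 78.8 FPKM in in vitro follicle oocytes, and 5.84 FPKM in in vivo MII oocytes against 73.8 FPKM in in vivo follicle oocytes. Cops8 went the other way, with 274 FPKM in in vitro MII oocytes against 118 FPKM in in vitro follicle oocytes, and 332 FPKM in in vivo MII oocytes against 113 FPKM in in vivo follicle oocytes, though with groups scaled to the same sum no subunit was called higher in either route. Between the MII groups, Cops3, Cops7a, Cops6 and Cops5 were higher in culture than in the animal, where 12.4% of all genes were. Equal sums kept all of these and added Cops2. Centring kept Cops3 and Cops7a, and quantile normalization Cops3 alone. The median log2 ratio of the 9 at the MII step was -1.42 in culture and -2.71 in the animal, where the median of all genes was -0.08 and -0.09.

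Of 14 genes of neddylation and cullin cycling, 6 were higher and 3 lower at MII in culture, and 7 were higher and 5 lower in the animal. Equal sums gave 4 higher and 3 lower in culture and 4 higher and 5 lower in the animal. Uba3, a subunit of the Nedd8-activating enzyme, had 136 FPKM in in vitro MII oocytes against 14.8 FPKM in in vitro follicle oocytes, and 241 FPKM in in vivo MII oocytes against 12.6 FPKM in in vivo follicle oocytes. Ube2m, a Nedd8 E2, had 30.9 FPKM in in vitro MII oocytes against 67.4 FPKM in in vitro follicle oocytes, and 2.50 FPKM in in vivo MII oocytes against 80.4 FPKM in in vivo follicle oocytes. Of 11 other cullins and adaptors, 3 were higher and 4 lower at MII in each route, with Cul4b, Ddb1 and Cul5 the higher ones in both. Under equal sums, Cul4b alone was still higher in culture, and Cul4b and Ddb1 in the animal, and 5 were lower in each route.

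Of 6 F-box genes under other names, Skp2 and Kdm2a were higher and Ccnf, Btrc and Kdm2b lower at MII in both routes, and Lrrc29 stayed below 1 FPKM in every group. Kdm2a was, under equal sums, just short of 2-fold in the animal (log2 0.98). After centring Kdm2b was within 2-fold in both routes (-0.54 in culture and -0.40 in the animal) and Btrc in the animal (-0.86). Skp2, the adaptor for p27, had 27.2 FPKM in in vitro MII oocytes against 1.74 FPKM in in vitro follicle oocytes, and 53.8 FPKM in in vivo MII oocytes against 1.05 FPKM in in vivo follicle oocytes. Ccnf, or cyclin F, had 1.56 FPKM in in vitro MII oocytes against 25.2 FPKM in in vitro follicle oocytes, and 0.220 FPKM in in vivo MII oocytes against 23.6 FPKM in in vivo follicle oocytes. Btrc, the other beta-TrCP gene, had 9.27 FPKM in in vitro MII oocytes against 31.8 FPKM in in vitro follicle oocytes, and 6.36 FPKM in in vivo MII oocytes against 25.3 FPKM in in vivo follicle oocytes, opposite in direction to the deposited values of Fbxw11. Of 20 known SCF substrates, 7 were higher and 4 lower at MII in culture, and 9 were higher and 4 lower in the animal. Equal sums gave 6 higher and 7 lower in culture and 5 higher and 7 lower in the animal. Wee1, the kinase that holds CDK1 inactive, had 1.15 FPKM in in vitro MII oocytes against 24.4 FPKM in in vitro follicle oocytes, and 0.756 FPKM in in vivo MII oocytes against 31.2 FPKM in in vivo follicle oocytes.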

How the data were processed

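Poly(A) RNA of 23 samples was sequenced from directional libraries on a HiSeq2000, per the labels' protocols, from 99 to 134 MII oocytes, 337 to 812 secondary follicle oocytes and 5300 to 15000 cells of the earlier culture groups. The submitters' processing notes name TopHat2, Bowtie2 2.0.13, Cufflinks, Cuffdiff 2.2.1 and mm10; roles, annotation, strand setting and treatment of reads that map to several copies are not given in the sources used here. The values deposited by the authors are FPKM, 1 per gene and group, so depth and replicate spread are unknown, and the 9 comparisons (3 of culture against animal, 6 of consecutive stages) have no test. The design foresaw limma for values per sample, and its fallback was used: log2(FPKM + 1), genes with at least 1 FPKM in 1 of 8 groups, calls at 2-fold. The script was checked on simulated data.

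The F-box genes and gene lists were chosen with earlier results of these data known, and no list is evidence of its own direction. Some matching symbols are not reported here. Genes were named where they belonged to Fbxw13 to Fbxw28, passed 2-fold between routes with at least 5 FPKM, were among the 5 highest or lowest of a stage step with at least 10 FPKM, were among the 5 highest of a group, or were Fbxw7, Fbxw11, Fbxo5, Fbxo11, Fbxo15, Fbxo30, Fbxo47, Fbxl5, Fbxl20, Fbxo34 or Fbxo7; for the lists, members past 2-fold; and the 8 genes most like the cluster's sum. Other names, and members given as extremes or examples, were chosen after their values were seen. Alternatives were pseudocounts of 0.1 and 5, filters of 5 FPKM and none, the cluster left out, and 3 rescalings. All 76 symbols matched RefSeq. Coding sequences and positions came from GENCODE M21 (GRCm38, of which mm10 is the UCSC name), aligned with edlib 1.3.9.post1 in Python 3.11.15, and promoters from RefSeq (GRCm38.p6).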

Additional observations from a re-analysis of the deposited data

How the results depend on the processing

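Values below replace those of the report where a processing choice was changed. With a pseudocount of 0.1 the number of F-box genes past 2-fold became 3 in reaggregated PGCLCs against E12.5 PGCs and 3 in in vitro against in vivo follicle oocytes, where it had been 0 in each, 21 in day 6 PGCLCs against ES cells and 15 in reaggregated against day 6 PGCLCs, where it had been 8 in each. With a pseudocount of 5 it became 2 in day 6 PGCLCs against ES cells and 1 in reaggregated against day 6 PGCLCs, and 27 in place of 41 in in vivo follicle oocytes against PGCs. The shares of all genes fell too. In day 6 PGCLCs against ES cells 4.15% were then higher and 5.33% lower. In reaggregated against day 6 PGCLCs these were 0.779% and 1.92%, and in in vivo follicle oocytes against PGCs 15.7% and 13.9%. Scaling the groups to the same sum gave 1 in reaggregated PGCLCs against PGCs, Fbxo27, and 1 in in vitro against in vivo follicle oocytes, Fbxl8. Quantile normalization gave 6 F-box genes in place of 21 between the MII groups. Of all genes, 8.99% were then higher and 5.61% lower, in place of 12.4% and 9.45%. The summed Fbxw13 to Fbxw28 level at MII over the secondary follicle stage was -0.53 in culture after centring, in place of -1.12, and -2.02 with equal sums and -2.31 after quantile normalization in the animal, in place of -0.54. In the animal step to MII, equal sums turned Fbxo30 to -0.18 and Fbxw11 to -0.15, and quantile normalization turned Fbxo34 to -0.12 and Fbxw22 to -0.13. Filters of 5 FPKM and none, and leaving out the cluster, left the number past 2-fold in either direction within 1.5 times in all 9 comparisons. The setting without a filter could not change it. The main counts cover all 76 F-box genes, and those below 1 FPKM cannot pass 2-fold with a pseudocount of 1. Leaving out the cluster could not change comparisons in which no cluster gene was called. By direction, leaving out the cluster gave 16 higher in place of 29 and 18 in place of 31 into follicle oocytes of culture and animal, 13 lower in place of 22 in the culture step to MII, and 5 higher in place of 9 between the MII groups. Rescaling moved the median log2 ratio of all genes by -0.65 (equal sums) and 0.98 (centring) in the animal step to MII, by -0.42 and 0.59 in the culture step, and by 0.22 and -0.39 between the MII groups. Which scale is the right one was not tested. No paired analysis was possible because the table gives 1 value per group, and for the same reason no replicate could be left out. Unknown depth limits values near 0, and near-identical copies limit the values of Fbxw14 and Fbxw28.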
